A study of Homo sapiens with 6 samples.

Results

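Interferon-stimulated genes and interferon regulatory factors were examined in RNA sequencing of Hep3B cells, a human hepatocellular carcinoma line, with and without nPD-L1. The set was a fixed list of 46 gene symbols (interferon-stimulated effectors, RNA and DNA sensors, and interferon regulatory factors), and all 46 had a row among the 27009 genes of the deposited table. In 40 of the 46, values reached 10 in at least 3 of the 6 libraries, and these 40 were among the 15076 genes tested. All 6 libraries came from cells that carry a knockout of the endogenous PD-L1 gene. The 3 vector libraries received the empty vector. The 3 nPD-L1 libraries received a PD-L1 with a mutated LCL motif (changed to ACA), expressed from a CMV promoter in a lentiviral construct with puromycin resistance and designed to be held in the nucleus, and both groups were stable cells. No cytokine or drug treatment is named for these libraries, and the sources used here do not say whether the knockout line was 1 clone. The study calls the samples of a group independent but does not say whether they were separate cultures, so p-values measure only the spread between these libraries. The comparison asks which transcripts differ when PD-L1-null cells carry a nuclear form of the protein.

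Type I and type III interferons bind receptors that activate JAK1 and TYK2, which phosphorylate transcription factors of the STAT family. A complex of these with IRF9, called ISGF3, binds the interferon-stimulated response element (ISRE) in front of genes such as ISG15 and the IFIT genes, whereas interferon-gamma acts through the gamma-activated site (GAS) of genes such as IRF1. Many of these genes also have a low basal expression in unstimulated cells, and hepatocyte-derived cells are responsive to both interferon types.

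Promoter sequences are shown first because the ISRE and GAS are the sites through which interferon acts on these genes. RefSeq windows of GRCh38.p14, from 250 bases before to 50 bases after each start, were matched to 34 of the 46 genes. The other 12 were USP18, DHX58, TMEM173, IFIT2, OAS2, OASL, GBP2, IFITM2, PML, IRF2, IRF3 and IRF7. An ISRE core, which is GAAA, any 2 bases and GAAA again, was searched on both strands and was in 19 of the 34 windows (55.9%) and in 3.57% of all 35116 windows. The motif TTCNNNGAA, a GAS core that reads the same on both strands, was in 7 of 34 (20.6%) and in 7.66% of all windows. The 7 sequences that follow are the 200 bases before the start, 5′ to 3′ on the strand of the gene, with motif matches in capitals. The first 5 belong to genes with an ISRE match that stood more than 2-fold apart between 2 vector libraries, IFIT5 is a gene with ISRE matches that hardly varied, and IRF1 holds a GAS match and no ISRE match. Not printed are GBP1, also with an ISRE match and more than 2-fold apart, and other tested genes with ISRE matches that were less than 2-fold apart.
ISG15, chr1:1013297-1013496, + strand: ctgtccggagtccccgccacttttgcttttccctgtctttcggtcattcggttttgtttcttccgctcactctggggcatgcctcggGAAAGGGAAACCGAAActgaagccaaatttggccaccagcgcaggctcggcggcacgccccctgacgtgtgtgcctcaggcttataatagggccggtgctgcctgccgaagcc
IFI6, chr1:27672193-27672392, - strand: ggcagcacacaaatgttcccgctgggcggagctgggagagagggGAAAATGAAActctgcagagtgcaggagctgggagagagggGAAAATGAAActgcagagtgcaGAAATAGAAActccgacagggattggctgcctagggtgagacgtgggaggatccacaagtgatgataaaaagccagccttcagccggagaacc
IFIT1, chr10:89392423-89392622, + strand: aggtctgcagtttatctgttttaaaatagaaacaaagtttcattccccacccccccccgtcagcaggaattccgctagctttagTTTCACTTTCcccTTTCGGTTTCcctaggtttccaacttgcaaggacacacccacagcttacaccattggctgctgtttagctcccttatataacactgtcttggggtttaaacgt
IFIT3, chr10:89327797-89327996, + strand: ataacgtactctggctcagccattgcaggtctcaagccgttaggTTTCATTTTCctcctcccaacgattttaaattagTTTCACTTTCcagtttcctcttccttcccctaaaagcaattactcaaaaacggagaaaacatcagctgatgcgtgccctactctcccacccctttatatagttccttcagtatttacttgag
IFI27, chr14:94110536-94110735, + strand: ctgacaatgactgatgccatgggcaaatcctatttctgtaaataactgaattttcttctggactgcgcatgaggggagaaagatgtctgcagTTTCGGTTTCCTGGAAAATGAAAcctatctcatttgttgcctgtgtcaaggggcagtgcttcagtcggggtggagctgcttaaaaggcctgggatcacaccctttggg
IFIT5, chr10:89414368-89414567, + strand: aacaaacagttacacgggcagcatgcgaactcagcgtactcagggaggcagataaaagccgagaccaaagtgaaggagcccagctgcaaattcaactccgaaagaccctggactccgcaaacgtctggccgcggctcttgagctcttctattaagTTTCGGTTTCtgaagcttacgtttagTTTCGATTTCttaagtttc
IRF1, chr5:132490774-132490973, - strand: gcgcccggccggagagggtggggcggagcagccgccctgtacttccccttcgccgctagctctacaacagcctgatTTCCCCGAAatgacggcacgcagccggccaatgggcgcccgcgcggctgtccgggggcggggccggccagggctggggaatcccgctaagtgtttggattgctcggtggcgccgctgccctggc
In ISG15 the capitals are 2 overlapping ISRE matches, and in IFI27 they are 2 ISRE matches and a GAS match between them that overlaps both. IFIT5 also has a match that begins 4 bases before its start and is cut off at the end of the printed run. A match to these letters is a description of the sequence and no measure of binding.

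The deposited values are gene-level reads that had been divided by a factor for each library, and are called scaled reads here. Whole reads recovered from them numbered 17427519 to 22253295 per library, of which 0.144% to 0.162% of the scaled total fell on the 46 genes. CD274, which encodes PD-L1, had 28.3, 38.4 and 47.8 scaled reads in the 3 vector libraries, and 16.8, 19.2 and 30.9 with nPD-L1. Its log2 fold change was −0.76 (SE 0.34, adjusted p = 0.338, limma), so the transcript was not higher where PD-L1 had been reintroduced, and each direction below rests on the labels of the libraries. Of 8 hepatocyte markers with a row, 5 (ALB, APOA1, APOB, TTR and TF) stayed under 10 in every library, although FGB was at 962 to 1540. SERPINA1 was at 7.91 to 41.4, and HNF4A, a liver transcription factor, was at 6.24 to 19.2 in vector and 33.8 to 51.6 in nPD-L1 and was called higher (log2 fold change 1.91, SE 0.42, adjusted p = 0.0232, limma), and its part in the results below was not tested. Thus most defining markers of the labelled liver cell were at or near 0. All statements about Hep3B therefore rest on the labels.

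At an adjusted p under 0.05, none of the 40 genes was called higher or lower in the libraries labelled nPD-L1 by limma. Of all 15076 genes, 748 (4.96%) were called, 609 higher (4.04%) and 139 lower (0.922%). At an unadjusted p under 0.05, 1 of the 40 interferon genes remained, IFIT2, compared with 14.2% of all genes. edgeR and DESeq2, run on the recovered reads of the 6 libraries, also called 0 of the 40, compared with 5.03% and 6.37% of all genes. Each gave 1 of the 40 at an unadjusted p under 0.05, compared with 14.2% and 13.5% of all genes. The log2 fold changes of the 40 ranged from −0.67 to 0.82, 16 above and 24 below 0, with 37 between −0.5 and 0.5. Their median was −0.09, where the median of all genes tested was −0.02. With the gene length trend removed, 11 were above and 29 below 0, and the medians were −0.07 for both. Adjusted p-values ran from 0.269 to 0.996. A p that misses the threshold does not show equality, and the intervals give the bounds: the 95% interval of the log2 fold change lay inside −1 to 1, a change of less than 2-fold either way, in 34 of the 40 genes, and in 77.9% of all genes tested. Groups did not overlap in 2 of the 40 (5%), HERC5 and IFIT5, compared with 20.6% of all genes. Both were lower in the libraries labelled nPD-L1, a direction that 8.54% of all genes had without overlap.

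**Figure D1:**
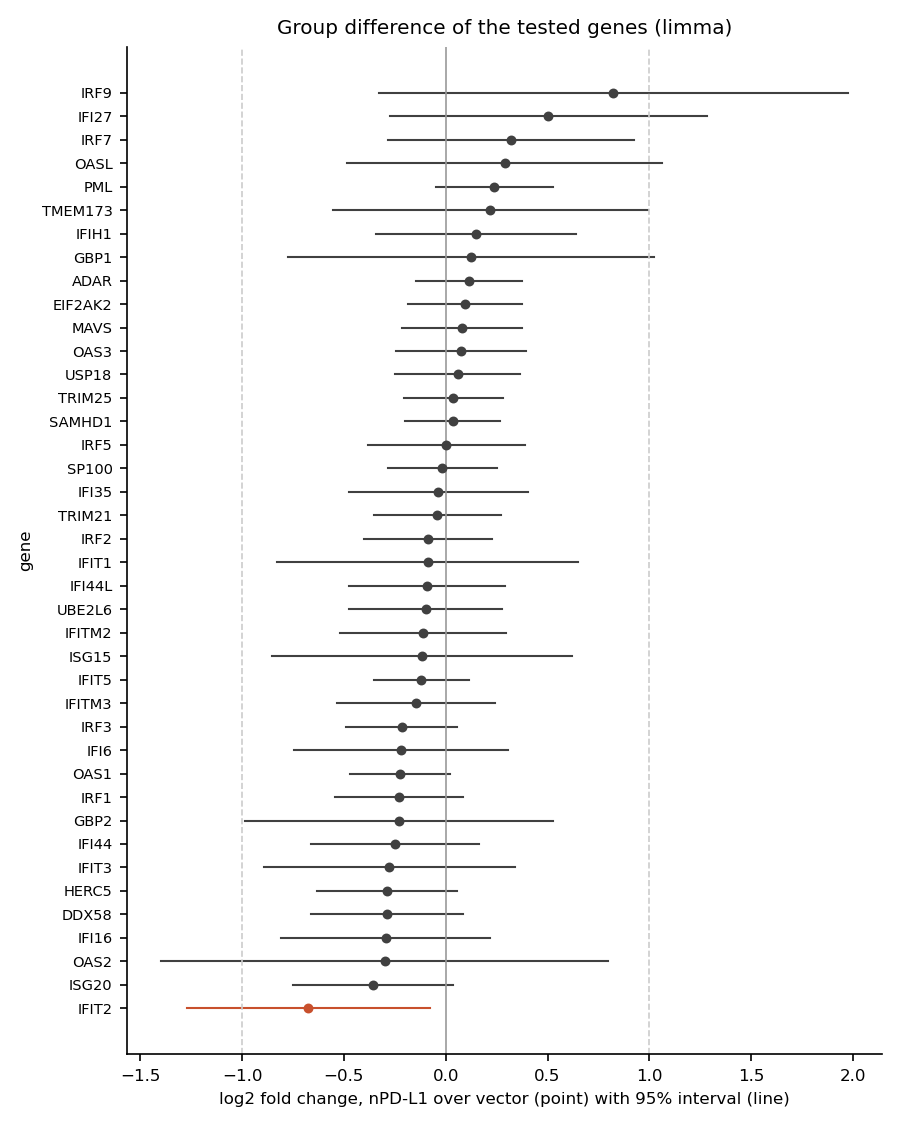
Log2 fold change of each of the 40 interferon genes tested, nPD-L1 over vector (x axis, log2(scaled reads + 1) scale), with the 95% interval from limma as a line and dashed lines at a 2-fold change. IFIT2, in orange, is the gene with an unadjusted p under 0.05, and every interval except that of IFIT2 crosses 0.

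IFIT2, an RNA-binding effector that restrains viral translation (chr10:89283694-89309276, GRCh38), was at 124.2, 154.7 and 76.9 scaled reads in vector replicates 1, 2 and 3. In nPD-L1 replicates 1, 2 and 3 it was at 74.0, 57.7 and 83.9. Vector replicate 3 lay within the range of the nPD-L1 libraries, and vector replicates 1 and 2 lay above all of them. The log2 fold change was −0.67 (SE 0.27, unadjusted p = 0.0304, adjusted p = 0.269, limma). Without vector replicate 3 the log2 fold change of IFIT2 was −0.96 with an adjusted p of 0.0369, and it was then the only 1 of the 40 to be called.

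Of the 12 RNA-directed effectors, all of which were tested, 5 had a log2 fold change above 0 and 7 below, from −0.67 to 0.29. ADAR, which edits adenosine to inosine in double-stranded RNA (chr1:154582057-154628013), was the most abundant of them at 6422, 4887 and 6175 scaled reads in vector and 6299, 6203 and 6320 in nPD-L1. Its nPD-L1 libraries lay within 1.02-fold of each other, and vector replicate 2 was the low library. OAS3, a synthetase of the 2-5A messenger that activates RNase L (chr12:112938352-112973249), had the same shape at 2959, 2022 and 2983 against 2819, 2740 and 2710. The log2 fold change was 0.12 for ADAR (95% interval −0.14 to 0.38) and 0.08 for OAS3 (−0.24 to 0.40).

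IFIT1, which binds the cap of foreign RNA (chr10:89392546-89406486), was at 132.2, 204.4 and 83.1 in vector and at 99.2, 100.1 and 188.1 in nPD-L1. The spread within both groups was large, with a 2.46-fold range in vector and 1.90-fold in nPD-L1, and the log2 fold change was −0.09 (SE 0.33). OASL, an OAS-like protein that enhances RIG-I signaling (chr12:121019111-121039242), was at 63.6, 89.2 and 30.1 in vector and 70.6, 59.7 and 75.2 in nPD-L1. OAS2, another synthetase (chr12:112978395-113011723), was low and scattered at 18.2, 24.8 and 12.5 against 6.72, 24.3 and 17.4. ISG20, an exonuclease (chr15:88636153-88656483), was at 462.3, 553.4 and 347.1 against 358.8, 391.4 and 300.0, and its groups overlapped only through vector replicate 3. The log2 fold changes of OASL, OAS2 and ISG20 were 0.29, −0.30 and −0.36 (SE 0.35, 0.50 and 0.18). Among the remaining RNA-directed effectors, IFIT3, IFIT5, OAS1, EIF2AK2 and SAMHD1, log2 fold changes lay between −0.28 and 0.09. IFIT5 was at 536.0 to 579.9 in vector and 502.5 to 530.0 in nPD-L1, so that its groups were apart by a log2 fold change of only −0.12 (SE 0.11).

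Of the ubiquitin-like system, all 5 genes were tested, with 2 above and 3 below 0 (−0.29 to 0.06). ISG15, the ubiquitin-like modifier that is attached to proteins after interferon (chr1:1001138-1014540), was at 175.6, 316.2 and 100.8 scaled reads in vector replicates 1, 2 and 3, while the nPD-L1 libraries held 148.7, 192.2 and 153.4. All nPD-L1 libraries lay inside the vector range, and the log2 fold change was −0.12 (SE 0.33, 95% interval −0.85 to 0.62). TRIM25, a ubiquitin ligase that also ligates ISG15 (chr17:56836387-56914080), was at 3047, 2494 and 3176 against 3030, 2936 and 2930. HERC5, the main ISG15 ligase (chr4:88457117-88506163), was at 175.6, 192.0 and 207.8 against 174.8, 152.7 and 143.7, and its groups were separated by less than 1 scaled read. The conjugating enzyme UBE2L6 and the protease USP18, which removes ISG15 and brakes the receptor, had log2 fold changes of −0.10 and 0.06.

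Of the 7 sensors and adaptors, 6 were tested, 3 above and 3 below 0 (−0.30 to 0.22). DDX58, the RNA helicase RIG-I (chr9:32455705-32526324), was at 364.4, 438.2 and 299.3 in vector and 281.5, 266.0 and 349.2 in nPD-L1. IFI16, a sensor of nuclear DNA (chr1:158999968-159055155), was at 85.8, 87.0 and 56.1 against 63.0, 58.7 and 60.8. In both genes vector replicates 1 and 2 lay above all nPD-L1 libraries, while vector replicate 3 lay inside their range for DDX58 and below it for IFI16, and the log2 fold changes were −0.29 (SE 0.17) and −0.30 (SE 0.23). MAVS, the mitochondrial adaptor of the RNA helicases (chr20:3846799-3876123), was at 2279, 1682 and 2293 against 2019, 2348 and 2191. IFIH1 (MDA5), TMEM173 (STING) and TRIM21 had log2 fold changes of 0.15, 0.22 and −0.04, and TMEM173 was low in every library, at 15.1 to 28.2 scaled reads. DHX58 (LGP2), which modulates the other helicases, was not tested: it was at 8.075, 10.2 and 3.12 in the vector libraries, 6.07 in nPD-L1 replicate 2 and 0 in nPD-L1 replicates 1 and 3. A library with 0 reads allows up to 3 reads, which is 2.52 and 2.89 scaled reads in those 2 libraries, by counting error alone.

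The 3 interferon-induced GTPases included GBP2, a guanylate-binding protein (chr1:89106132-89150456), at 134.2, 192.0 and 64.4 in vector and 90.8, 126.4 and 89.7 in nPD-L1, again with vector replicate 2 at the top and vector replicate 3 at the bottom. Its log2 fold change was −0.23 (SE 0.34), and that of GBP1 was 0.13 (SE 0.41). MX1, a GTPase that traps viral nucleocapsids and a standard marker of type I interferon, was not tested and lay between 4.04 and 9.10 scaled reads in all 6 libraries.

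Of the 5 membrane restriction factors, IFITM2 and IFITM3, which block fusion of viruses in endosomes, were tested, and both were below 0. IFITM2 (chr11:307631-315272) was at 1747, 2240 and 1232 against 1555, 1724 and 1424, and was the highest of the 46 genes per length, at 1072 scaled reads per kilobase of gene length over the 6 libraries. The next highest per kilobase were ADAR at 624, IFI35 at 418, IRF3 at 418 and OAS3 at 328. Its log2 fold change was −0.11 (SE 0.18) and that of IFITM3 −0.15 (SE 0.18). IFITM1 lies within the coordinates given for IFITM2, and the IFITM genes are near-identical copies, so reads may have been divided between them in a way that the table does not show. IFITM1, BST2 (tetherin) and RSAD2 (viperin) were not tested, and their values lay between 0 and 8.68 scaled reads. BST2 was at 0 in vector replicates 1 and 3 and at 7.91 in vector replicate 2, and RSAD2 was at 2.02, 6.78 and 1.04 in vector and 3.86 to 5.06 in nPD-L1.

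The nuclear body proteins PML and SP100 were both tested. PML, the scaffold of the body (chr15:73994673-74047812), was at 609.6, 533.1 and 460.4 in vector and 651.3, 650.3 and 580.7 in nPD-L1, so that vector replicate 1 lay above the lowest nPD-L1 library. The log2 fold change was 0.24 (SE 0.13, 95% interval −0.05 to 0.52), and that of SP100 was −0.02 (SE 0.12). Of 6 other interferon-induced proteins, 5 were tested, 1 above and 4 below 0. IFI27, a mitochondrial protein often among the most induced transcripts in interferon signatures (chr14:94104836-94116698), was at 64.6, 65.5 and 24.9 in vector and 63.9, 62.7 and 77.2 in nPD-L1. Here vector replicate 3 alone was low, and the log2 fold change was 0.50 (SE 0.35, 95% interval −0.27 to 1.28), or 0.055 without that library. IFI35, which interacts with NMI (chr17:43006725-43014456), was at 782.2, 1150 and 610.0 against 749.6, 908.2 and 746.6, and IFI6, IFI44 and IFI44L had log2 fold changes of −0.22, −0.25 and −0.09. XAF1, a proapoptotic interferon target, was at 0 in 5 libraries and at 1.68 in nPD-L1 replicate 1.

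The 6 interferon regulatory factors were all tested, 3 above and 3 below 0, although IRF5 moved to −0.02 with upper-quartile factors. IRF3, the constitutive factor that sensor signaling activates by phosphorylation (chr19:49659569-49665875), was the most abundant at 1708, 1950 and 1464 in vector and 1539, 1528 and 1321 in nPD-L1. IRF1, the activator induced through GAS (chr5:132481609-132490798), was at 626.8, 808.6 and 674.5 against 510.9, 683.7 and 607.7, and IRF2, its antagonist (chr4:184387713-184474580), at 215.0, 253.0 and 260.9 against 213.4, 238.7 and 232.5. The groups overlapped in all 3 genes, and the log2 fold changes were −0.22 (SE 0.12), −0.23 (SE 0.14) and −0.09 (SE 0.14). IRF7, the interferon-inducible amplifier of type I interferon transcription (chr11:612553-615999), was at 193.8, 259.8 and 112.2 against 202.5, 275.1 and 197.8. IRF5, a factor of Toll-like receptor signaling (chr7:128937612-128950035), was at 228.1, 208.9 and 170.4 against 189.9, 240.7 and 178.5. Vector replicate 3 was the lowest of the 6 libraries for both, and the log2 fold changes were 0.32 (SE 0.27) and 0.00 (SE 0.17). IRF9, the DNA-binding subunit of ISGF3 (chr14:24161053-24166565), was near the limit of the filter at 8.075, 3.39 and 12.5 against 10.9, 16.2 and 13.5. It had the highest log2 fold change of the 40, 0.82 (SE 0.52, 95% interval −0.33 to 1.97, adjusted p = 0.555, limma), but it reached 10 in 3 nPD-L1 libraries and only 1 vector library, so it passed the filter through the group in which it was higher. The log2 fold change of IRF9 was 0.38 without vector replicate 2, 1.19 without vector replicate 3 and 0.41 with a pseudocount of 10.

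**Figure D2:**
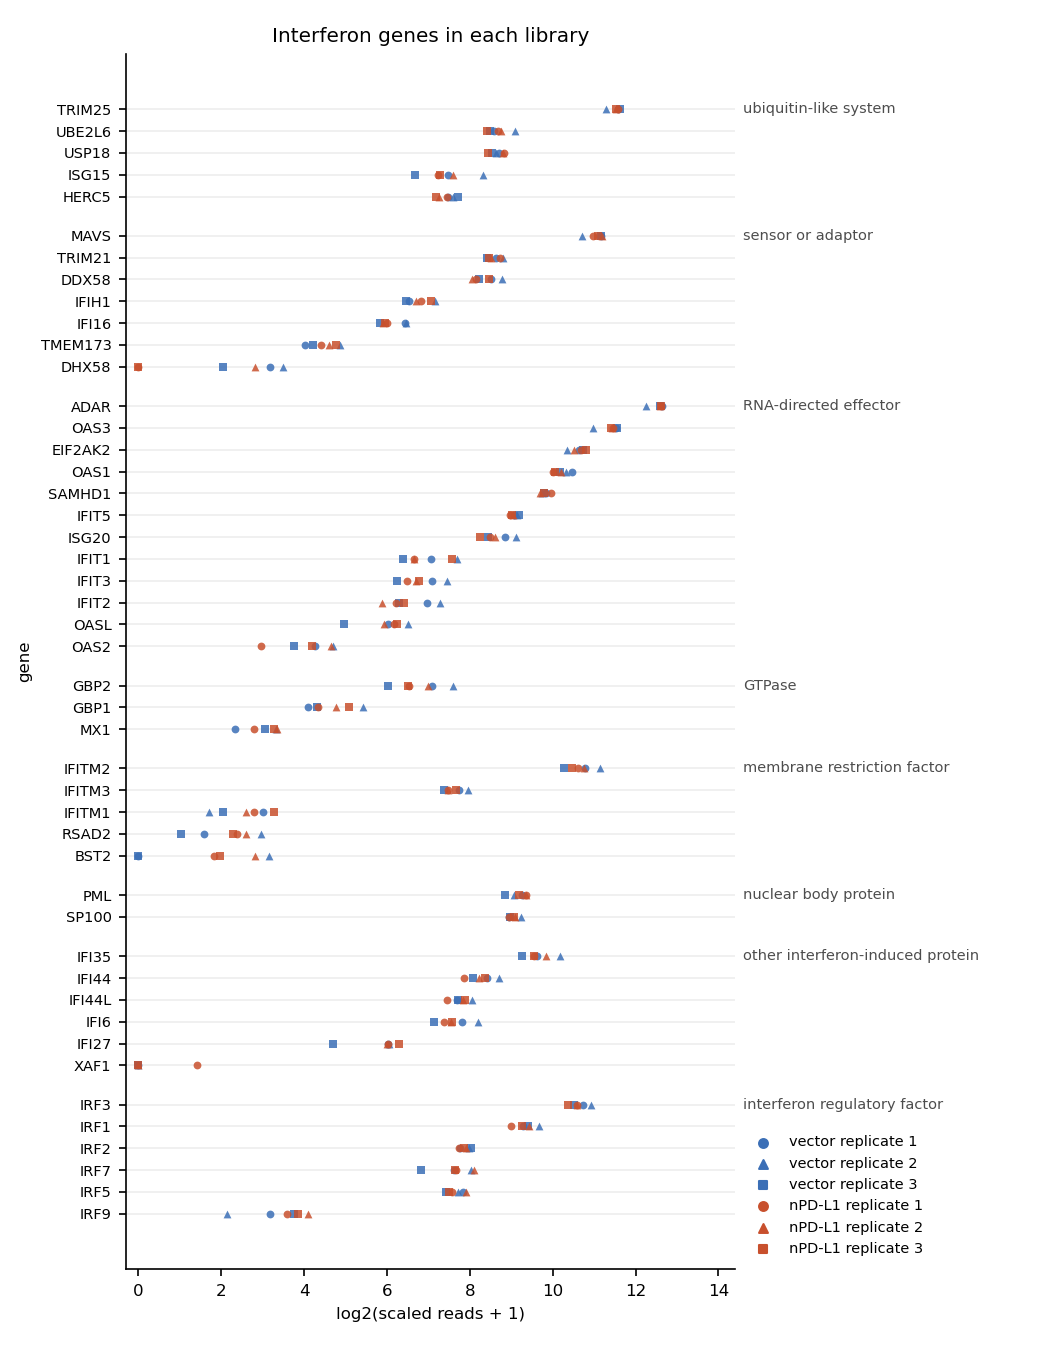
Level of each of the 46 interferon genes in each library, as log2(scaled reads + 1), grouped by role and sorted by mean within a role. Blue points are vector and orange points nPD-L1 libraries, with a circle, triangle and square for replicates 1, 2 and 3, and in many rows the blue triangle lies to the right and the blue square to the left of the orange points.

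The spread between libraries was larger than the group difference for most of these genes, and it had an order. Vector replicate 2 was the highest of the 6 libraries in 24 of the 40 genes tested (60%), compared with 29.5% of all genes tested. Vector replicate 3 was the lowest in 16 of 40 (40%), compared with 16% of all genes. The deviation from the mean of the gene over 6 libraries had a median of 0.33 on the log2 scale in vector replicate 2 and −0.19 in vector replicate 3 over the 40 genes, and of 0.01 and 0.00 over all genes. In the nPD-L1 libraries the medians of the 40 lay between −0.09 and 0.03. Within the vector group the full order replicate 2, replicate 1, replicate 3 from high to low was seen in 21 of 40 genes (52.5%), compared with 26.9% of all genes, and the opposite order in 5 of 40, compared with 27.5%. The comparisons of vector replicates 2 and 3, here and below, were not planned. They take the libraries most often highest and lowest in these same 40 genes, so their excess over all genes follows in part from that choice.

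**Figure D3:**
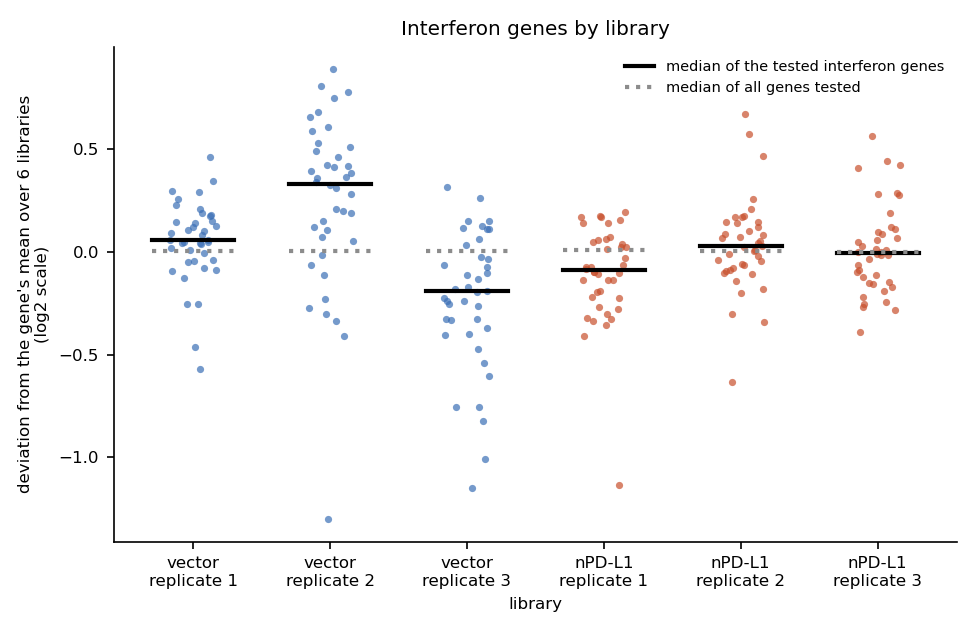
Deviation of each of the 40 interferon genes tested from its own mean over the 6 libraries (y axis, log2 scale), with 1 point per gene in each library. The black bar is the median of the 40 genes and the dotted gray bar that of all 15076 genes, and the black bar stands at 0.33 in vector replicate 2 and at −0.19 in vector replicate 3.

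The SD of the log2 values had a median of 0.31 in vector and 0.16 in nPD-L1 over the 40 genes, compared with 0.21 and 0.15 over all genes. It was larger in vector than in nPD-L1 in 33 of 40 genes (82.5%) and in 65.2% of all genes. Vector replicate 2 exceeded vector replicate 3 in 30 of 40 genes (75%), compared with 49.4% of all genes, by a median of 0.56 on the log2 scale, compared with −0.01. On the log2(scaled reads + 1) scale these 2 libraries were more than 2-fold apart in 10 of 40 genes (25%), compared with 8.5% of all genes. IFIT2, at a ratio of 2.01 in scaled reads, fell just short on this scale, and IRF9 was the only 1 of the 10 that was higher in vector replicate 3. The difference between them was larger in size than the group difference in 35 of the 40 genes, and in 69.2% of all genes.

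The reads behind these values separated the 2 libraries beyond counting error in most of these genes. ISG15 had 280 reads in vector replicate 2 and 97 in vector replicate 3, a ratio of 3.14 after scaling with a 95% interval of 2.48 to 3.99 from the exact binomial (Clopper-Pearson) limits. The ratio was 2.98 for GBP2 (2.22 to 4.05), 2.96 for OASL (1.91 to 4.70), 2.63 for IFI27 (1.61 to 4.42), 2.46 for IFIT1 (1.88 to 3.24), 2.31 for IRF7 (1.83 to 2.94) and 2.31 for IFIT3 (1.73 to 3.10). The interval lay above 1 in 26 of 40 genes (65%), compared with 28.7% of all genes, and below 1 in 5 of 40 (12.5%), compared with 28.4%. Those 5 were ADAR, OAS3, MAVS, EIF2AK2 and TRIM25, and OAS3 was the farthest from 1 of them, at 0.678 (0.639 to 0.719). IRF9 had 3 reads against 12, a ratio of 0.272 (0.0492 to 1.01). These intervals cover counting error only, compare 2 libraries and not 2 conditions, and take no account of PCR duplicates.

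The difference between the 2 vector libraries moved with gene length. Vector replicate 2 exceeded vector replicate 3 in 62.5% of all genes shorter than the median length of the genes tested (4654 bases) and in 36.4% of longer genes. Among the interferon genes it did so in 19 of 22 shorter genes, with a median log2 difference of 0.63, and in 11 of 18 longer genes, with a median of 0.24. The medians over all genes were 0.16 and −0.14, so the interferon genes lay above them in both length classes. With the trend on gene length removed from each library, the median difference of the 40 genes was 0.53, vector replicate 2 exceeded vector replicate 3 in 30 of 40, and the order replicate 2, 1, 3 was seen in 25 of 40. The 5 genes with the interval below 1 were 8251 to 11771 bases long, and their differences shrank with the trend removed, for example from −0.56 to −0.40 in OAS3 and from −0.34 to −0.14 in ADAR. The part of RNA quality or library preparation in this difference was not tested.

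The 16 tested genes with an ISRE match in the promoter window had a median log2 difference of 0.65 between vector replicates 2 and 3, higher in replicate 2 in 12 of 16 and more than 2-fold apart in 6. The 13 tested genes with a window and no match had a median of 0.26, higher in 8 of 13 and more than 2-fold apart in 1, which was IRF9 in the opposite direction. Tested genes without a window entered neither class. Of them, OASL, GBP2 and IRF7 were more than 2-fold apart, higher in replicate 2, and the others were not. Windows without a match can still hold GAAA runs at another spacing, as OAS1 does with 1 base between 2 of them. With the length trend removed the medians were 0.63 and 0.31. The group difference did not separate these classes, with medians of −0.11 and −0.02 and 11 of 16 and 7 of 13 genes below 0. For the GAS motif, the median log2 difference between vector replicates 2 and 3 was 0.26 in the 5 tested genes with a match. It was 0.47 in the 24 with a window and no match. With the length trend removed these medians were 0.41 and 0.42. All of these are descriptions over few genes of 2 libraries. HERC5, IFIT5, OAS3 and EIF2AK2 carry ISRE matches and were not higher in vector replicate 2.

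The group comparison of these genes moved with these 2 libraries. Without vector replicate 2, the median log2 fold change of the 40 genes was 0.02, with 21 above 0 and 19 below, and 0 were called. Without vector replicate 3 it was −0.15, with 12 above and 28 below, 10 lower and 0 higher at an unadjusted p under 0.05 (25%, compared with 6.96% of all genes lower), and 1 called, IFIT2, compared with 0.924% of all genes called lower. With both left out, which leaves a single vector library whose spread is assumed to be that of the nPD-L1 libraries, it was −0.07, with 14 above and 26 below and 0 called. In all 3 of these fits 0 genes were called higher. Sign changes were read only for genes followed singly over all settings, so the lists here are not complete for the 40. Among those genes, ISG15, GBP2, IFIT1, IFITM2 and IFI35 went from below to above 0 without vector replicate 2. ADAR, OAS3, TRIM25 and MAVS went from above to below 0. OASL, IRF7 and IRF5 went from above to below 0 without vector replicate 3.

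**Figure D4:**
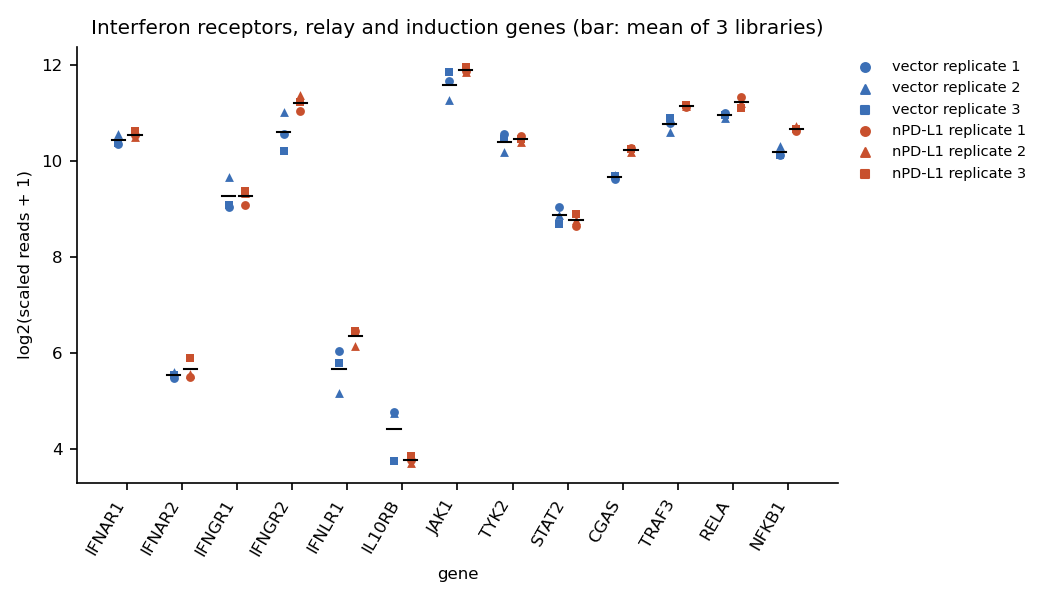
Levels of the 6 interferon receptors, 3 relay genes and 4 induction genes in each library (y axis, log2(scaled reads + 1)), blue for vector and orange for nPD-L1, with replicates 1, 2 and 3 as circle, triangle and square and a black bar for the mean of each group of 3. The nPD-L1 points of IFNGR2, IFNLR1, CGAS, TRAF3, RELA and NFKB1 lie above all vector points. The 4 induction genes drawn are those with an unadjusted p under 0.05, so their separation follows in part from that choice. Of all genes tested, 20.6% had groups without overlap, in either direction.

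Genes upstream of the interferon response were read from lists of ligands, receptors, relay proteins and induction proteins. All 6 receptor genes were tested and 0 were called. IFNGR2, the signaling chain of the interferon-gamma receptor (chr21:33402896-33479348), was at 1506, 2058 and 1184 in vector and 2088, 2657 and 2382 in nPD-L1, and the groups did not overlap. The log2 fold change was 0.62 (SE 0.18, adjusted p = 0.0931, limma), and the gene was called in 5 other settings, among them that without vector replicate 2 (0.82, adjusted p = 0.000332) and DESeq2 (0.59, adjusted p = 0.0306), with adjusted p = 0.0424 after removal of the length trend. IFNLR1, the specific chain of the interferon-lambda receptor (chr1:24154157-24187959), was at 64.6, 35.0 and 54.0 against 87.4, 69.8 and 86.8, a log2 fold change of 0.69 (SE 0.26, adjusted p = 0.229). The other receptor chains overlapped between groups: IFNAR1 was at 1296 to 1511 against 1432 to 1563, IFNAR2 at 43.4 to 47.4 against 44.5 to 58.8, IFNGR1 at 527.9 to 813.1 against 539.5 to 656.9, and IL10RB at 12.5 to 26.2 against 12.1 to 13.5.

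None of the 8 genes of the JAK-STAT relay and its brakes examined here (JAK1, JAK2, TYK2, STAT2, SOCS1, SOCS3, PIAS1 and PTPN2) was called or passed an unadjusted p of 0.05. STAT2, the subunit that gives ISGF3 its activation domain, was at 410.5 to 525.9 in vector and 396.6 to 475.6 in nPD-L1, a log2 fold change of −0.10 (SE 0.13). STAT2 and PTPN2 were below 0 and the rest above, with a median of 0.19 over the 8. SOCS1 was low, at 8.31 to 12.4 scaled reads in vector and 12.6 to 25.3 in nPD-L1. Its groups did not overlap, but they were separated by less than 1 scaled read, and 20.6% of all genes had groups without overlap. The log2 fold change of SOCS1 was 0.87 (SE 0.42, adjusted p = 0.388, limma). Among 12 genes of the induction pathway 11 had a row and 10 were tested, and 2 were called, both higher, compared with 4.04% of all genes called higher. CGAS, the cytosolic DNA sensor that makes cGAMP for STING (chr6:73413515-73452276), was at 789.3, 826.7 and 823.1 in vector libraries and 1234, 1154 and 1209 in nPD-L1, a log2 fold change of 0.56 (SE 0.09, adjusted p = 0.00536, limma). NFKB1, the p50 subunit of NF-kappaB (chr4:102501329-102617302), was at 1105, 1269 and 1105 against 1576, 1684 and 1608, a log2 fold change of 0.49 (SE 0.10, adjusted p = 0.0166, limma). Both genes rose in the libraries labelled nPD-L1 with no overlap between the groups. The call of NFKB1 was lost when vector replicate 1 or any nPD-L1 library was left out (log2 fold changes 0.45 to 0.51, adjusted p up to 0.116). Both calls were lost in the count models on 4 libraries (vector replicates 2 and 3, nPD-L1 replicates 1 and 3). There edgeR gave log2 fold changes of 0.57 for CGAS (adjusted p = 0.173) and 0.43 for NFKB1 (adjusted p = 0.496). Over all genes, edgeR called 264 higher and 61 lower in these 4 libraries, compared with 620 and 138 in all 6. TRAF3, an adaptor upstream of TBK1 (chr14:102777476-102911500), was at 1768, 1551 and 1898 against 2214, 2267 and 2274 (log2 fold change 0.38, SE 0.10, adjusted p = 0.0698), and RELA, the p65 subunit (chr11:65653596-65663094), at 2042, 1891 and 1980 against 2574, 2366 and 2198 (0.27, SE 0.10, adjusted p = 0.210). These 2 did not pass the threshold, although their groups did not overlap, and TRAF3 was called in 3 other settings, among them DESeq2 on 6 libraries (adjusted p = 0.0321). Downstream of CGAS, TMEM173 and TBK1 were not called, with log2 fold changes of 0.22 and 0.20. Of the remaining induction genes tested, NLRC5 and TICAM1 had log2 fold changes of 0.43 and 0.15. IKBKE, TLR3 and TANK went the other way, at −0.32, −0.21 and −0.16.

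Of 10 interferon ligand genes 5 had a row. IFNE was tested, at 10.1, 21.5 and 20.8 against 8.40, 3.03 and 20.3 (log2 fold change −0.92, SE 0.61, adjusted p = 0.581, limma). It reached 10 in every vector library but in nPD-L1 replicate 3 alone, so it passed the filter through the group in which it was higher. IFNA1, IFNL1, IFNL2 and IFNL3 stayed at 0 to 4.16 scaled reads. IFNB1, IFNA2, IFNG, IFNK and IFNW1 were not analysed here. Markers of other cell types were read as well. The 6 leukocyte markers with a row summed to 37.3 to 59.2 scaled reads in vector and 47.5 to 74.0 in nPD-L1, mostly from ITGAM, and PTPRC was at 0 in 5 libraries and 2.52 in the other. IL3RA, the plasmacytoid dendritic cell marker with a row, was at 15.1 to 33.9 against 33.6 to 71.4 (log2 fold change 1.34, SE 0.39, unadjusted p = 0.00597, adjusted p = 0.0945, limma). The 4 endothelial or fibroblast markers summed to 60.3 to 89.8 in vector and 456.1 to 494.9 in nPD-L1, almost wholly from COL1A1, which was called higher (log2 fold change 2.84, SE 0.19, adjusted p = 7.99e-06, limma). VWF, PECAM1 and PDGFRB stayed under 10 in every library, and the part of these markers in the results was not tested. In bulk RNA, fewer cells expressing a gene and less RNA per cell cannot be told apart.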

How the data were processed

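Total RNA of 3 vector and 3 nPD-L1 libraries of Hep3B cells with endogenous PD-L1 knockout was isolated with TRIzol, made into libraries with a NEBNext Ultra kit and sequenced and analyzed by Novogene. The submitters' processing notes name CASAVA, HISAT2 2.0.5 and hg38. The counting tool, its strand setting and the annotation are not given in the sources used here. The gene coordinates of all 46 genes equal those of GENCODE release 29.

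The authors deposited 1 table of 27009 genes with a signal per library, which is the reads of a gene after division by a library factor, although the table is presented as raw counts. The deposited group means, fold changes and p-values were not used. Values in all 6 libraries were whole multiples of 1 read (within 0.001 read), so reads could be recovered and counting error could be given. Some results for single genes are not reported here. The interferon genes and gene lists were chosen with earlier results of these data known.

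The 15076 genes that reached 10 in 3 or more libraries were tested with limma 3.58.1 (R 4.3.3) on log2(value + 1), with trend and robust moderation and Benjamini-Hochberg adjustment over all 15076, without covariates. Fold changes are on this log2 scale, which understates changes of low genes. edgeR 4.0.16 (quasi-likelihood) and DESeq2 1.42.0 were run on recovered reads as alternatives, on 6 libraries and, added after the data were seen, on 4 whose read value lies clearly away from 1. The limma and edgeR fits were tried on simulated counts with the same dispersion for every gene. The simulation held no gene length trend and no deviating library, so it does not cover these features of the data. Other alternatives were upper-quartile and TMM factors, pseudocounts of 0.1 and 10, no filter, at least 10 in every library, non-robust moderation, a gene length trend removed (loess, span 0.3), a replicate block, the omission of each library in turn, and vector replicates 2 and 3 both left out (added). No batch is named. Promoters and their coordinates came from RefSeq, GRCh38.p14.

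Values in every library were printed for genes with an unadjusted p under 0.05, the 5 highest and 5 lowest log2 fold changes, the 5 largest within-group SDs, the 5 highest levels per length, all interferon regulatory factors, the gene with the highest mean of each role, and, of the upstream lists, the genes with an unadjusted p under 0.05. HERC5, IFIT5, DHX58, RSAD2, BST2, STAT2, SOCS1, IFNE and the single marker genes were added after their values had been seen.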

Additional observations from a re-analysis of the deposited data

How the results depend on the processing

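Over 22 other settings the number of interferon genes called higher stayed at 0. The number called lower was 0 except without vector replicate 3, where IFIT2 was called, so that leaving out 1 library gave 0 to 1, and except at an unadjusted p under 0.05, where it was 1. The median log2 fold change ranged from −0.15 to 0.02 when 1 library was left out, and changed sign only without vector replicate 2. In the 20 settings in which it was computed, it moved by less than the pooled SD of the library medians (0.19). That SD includes vector replicates 2 and 3, whose medians were 0.33 and −0.19, so it is a wide bound and does not show stability. Same-numbered libraries of the 2 groups deviated together with correlations of −0.0127, 0.229 and 0.131 for replicates 1, 2 and 3. Vector replicates 2 and 3 each correlated best with the nPD-L1 library of the same number, whereas vector replicate 1 correlated best with nPD-L1 replicate 3 (0.0738). Whether the numbers pair the libraries stayed undecided, and the main fit took no pairing. With the replicate block, 0 interferon genes were called (smallest adjusted p = 0.105 for ISG20, limma), and the median was −0.09. At an unadjusted p under 0.05 in this fit, 1 of the 40 was higher and 5 were lower. In either direction, 2805 of all 15076 genes tested passed the same unadjusted threshold. Among all genes tested, 927 were called higher and 258 lower.

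For the genes followed singly over the settings, the sign changed in 36 of the values recomputed. Each of these was uncalled before and after, and the cause was not tested. When 1 library was left out, log2 fold changes ran from −0.012 to 0.59 for IRF7, from −0.66 to 0.19 for OAS2, from −0.14 to 0.63 for OASL, from −0.52 to 0.30 for ISG15, from −0.66 to 0.12 for GBP2, from −0.41 to 0.23 for IFIT1, from −0.34 to 0.091 for IFITM2, from −0.0054 to 0.19 for ADAR, from −0.25 to 0.21 for IFI35, from −0.11 to 0.17 for OAS3, from −0.13 to 0.093 for IRF5, from −0.069 to 0.11 for TRIM25 and from −0.067 to 0.16 for MAVS. With the gene length trend removed they were −0.0082 for ADAR, 0.025 for IFI35, −0.026 for OAS3, −0.040 for IRF5, −0.085 for TRIM25 and −0.064 for MAVS. With vector replicates 2 and 3 both left out they were −0.034 for ADAR, 0.029 for IFI35, −0.10 for OAS3, 0.084 for IRF2, −0.18 for IRF5, −0.039 for TRIM25 and −0.063 for MAVS. On the recovered reads of 4 libraries IFIT1 was at 0.0078 with edgeR and 0.0011 with DESeq2, and IRF5 at −0.035 and −0.041, and with upper-quartile factors IRF5 was at −0.024. Of the upstream genes, IFNGR2 passed the threshold in 5 settings and TRAF3 in 3, whereas CGAS lost its call in 2 and NFKB1 in 6. The depth leaves DHX58, MX1, IFITM1, BST2, RSAD2 and XAF1 untested, and intervals wider than a 2-fold change in either direction remain for 6 of the 40 genes.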
